A study of Homo sapiens with 9 samples.

Results

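The 10 genes described here were FOS, FOSB, FOSL1 and FOSL2 of the Fos family, JUN, JUNB and JUND of the Jun family, and ATF3, EGR1 and IER3. They were chosen by symbol from the 19976 genes of the mRNA table, and all 10 were found and passed the filter on low counts in each comparison. AP-1 is a dimer of basic leucine zipper (bZIP) proteins, most often 1 Fos with 1 Jun protein, that binds a short palindrome in promoters and enhancers and controls genes of growth, invasion and stress. Many of its subunits are immediate early genes, whose transcription starts within minutes of a growth factor, kinase or stress signal and needs no new protein. In epithelial tumours the Fos-related proteins FOSL1 and FOSL2 are known as the longer-lived Fos subunits, and AP-1 is known for its part in invasion and in the response to DNA damage.

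The genes were measured in HCT8, a human ileocecal colorectal adenocarcinoma line, and in its 2 drug-resistant derivatives, by RNA-sequencing. HCT8/5-Fu cells (labelled HCT8_5_FU) had been obtained with rising doses of 5-fluorouracil, an antimetabolite that blocks thymidylate synthesis, and were kept in that drug. HCT8/DDP cells (labelled HCT8_DDP) had been obtained in the same way with cisplatin, which crosslinks DNA, and were kept in cisplatin, while parental HCT8 cells grew without drug. All cells grew in RPMI-1640 with fetal bovine serum, and each line gave 3 libraries. There was 1 resistant line per drug, so that a difference belongs to a line and the effect of the drug in the medium cannot be told apart from that of the selection. Whether the 3 libraries of a line came from separate cultures is not stated, and a p-value then measures the spread among libraries that may be technical repeats. In bulk RNA, fewer cells with a transcript and less of it per cell cannot be told apart.

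The promoters of 5 of the genes are shown first, because their control elements are short and legible. They come from the RefSeq table of 300-base promoters (build GRCh38.p14), which matched 8 of the 10 genes with 9 promoters, and in which FOSL1 and IER3 were not matched. Positions are counted from the transcription start, and capitals mark the motifs found by a search of both strands. The FOS sequence spans chr14:75278748-75278807 (plus strand, positions -80 to -21), and its capitals are TGACGTTT, a relative of the cyclic AMP response element, and the TATA box. The EGR1 sequence spans chr5:138465364-138465413 (plus strand, -115 to -66), with 2 CArG boxes, the element bound by serum response factor. The JUN sequence spans chr1:58784088-58784132 (minus strand, -85 to -41). The ATF3 sequence spans chr1:212565267-212565307 (plus strand, -140 to -100, before the upstream of its 2 starts), and in both genes the capitals are TGACATCA, a site known to be bound by Jun and ATF dimers. The JUND sequence spans chr19:18281800-18281837 (minus strand, -215 to -178), with the cyclic AMP response element TGACGTCA.
FOS: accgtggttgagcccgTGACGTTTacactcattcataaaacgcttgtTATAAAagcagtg
EGR1: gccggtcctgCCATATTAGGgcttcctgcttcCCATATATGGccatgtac
JUN: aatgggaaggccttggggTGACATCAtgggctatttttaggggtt
ATF3: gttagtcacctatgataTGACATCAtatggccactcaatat
JUND: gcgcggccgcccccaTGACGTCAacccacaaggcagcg

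Of 35116 RefSeq promoters of the same length, 0.487% held TGACGTTT, 2.61% held TGACATCA, 1.85% held TGACGTCA and 1.29% held a CArG box. TATAAA, which 11.5% of all promoters held, began at -33 in FOS, -30 in FOSB and -31 in JUNB. In ATF3 it lay at -230 to -225 before the downstream of its 2 starts, in a promoter not shown above. TGACTCA, the classical AP-1 site, was in 4.95% of all promoters and in 1 of the 9, that of FOSL2, at positions 5 to 11. Also searched were the ETS core GGAAGT, in 22.8% of all promoters and 3 of the 9, and 2 EGR sites. The EGR sites GCGGGGGCG (5.07% of all promoters) and GCGTGGGCG (0.795%) were in 0 of the 9. None of the motifs searched overlapped another. The matches describe the letters of these windows, and binding was not measured.

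The libraries held 19753035 to 28535882 counts, with the lowest totals in HCT8 replicate 1 and HCT8/5-Fu replicate 1. HCT8/5-Fu replicate 1 stood apart from the other libraries of its line: 295 genes differed between the resistant lines with it (edgeR, adjusted p under 0.05) and 3929 without it. The calls of the 10 genes and the list counts printed below that change without it are given both ways. Mitochondrial genes took 2.75% to 3.70% of the counts in HCT8/5-Fu and 4.64% to 5.86% in HCT8/DDP, against 4.75% to 7.02% in HCT8, where replicate 1 was the lowest. HCT8/5-Fu thus lay below both other lines in that share, and its part in the changes of the 10 genes was not tested. All 10 markers of colorectal epithelium were at 1 or more CPM (counts scaled to a common library total) in every line. Their summed level was 13426 to 15980 CPM in the HCT8/5-Fu libraries and 9579 to 10937 CPM in those of HCT8/DDP, against 5607 to 6753 CPM in HCT8. The largest parts were KRT8, at 7287, 4524 and 2468 CPM, and KRT18, at 4475, 2931 and 1536 CPM (means, in the same order). CDH1, CDX2 and VIL1 did not pass the test in either resistant line with all libraries. Of these 10 markers, 7 were higher in each resistant line, where 20.4% (HCT8/5-Fu) and 27.0% (HCT8/DDP) of all genes tested were higher. Without HCT8/5-Fu replicate 1, 7 markers were higher and 1 lower in HCT8/5-Fu. In that setting 3819 of all 13418 genes tested were higher and 3714 lower. Summed levels in HCT8/5-Fu, HCT8/DDP and HCT8 reached at most 8.10, 14.1 and 12.2 CPM for 8 fibroblast markers, 1.81, 3.55 and 5.52 CPM for 8 leukocyte markers, and 2.07, 2.22 and 1.49 CPM for 5 endothelial markers. The defining leukocyte markers PTPRC, CD3E and MS4A1 were at 0 in all 9 libraries.

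Most of the 10 genes were higher in the resistant lines. In HCT8/5-Fu, 7 of 10 were higher than in HCT8 and 1, EGR1, was lower at an adjusted p under 0.05 (edgeR quasi-likelihood test), where 20.4% of the 13228 genes tested were higher and 18.3% lower. In HCT8/DDP, 9 of 10 were higher, and the fitted change was positive for all 10, where 27.0% of the 13373 genes tested were higher and 25.5% lower. The median log2 fold change of the 10 was 0.84 in HCT8/5-Fu and 0.95 in HCT8/DDP, against -0.0042 and -0.014 over all genes tested. Both comparisons use the same 3 HCT8 libraries, so their values stand side by side and are not independent of each other. Of the 10, the largest fitted changes in both lines were those of FOSL1 and ATF3.

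**Figure D1:**
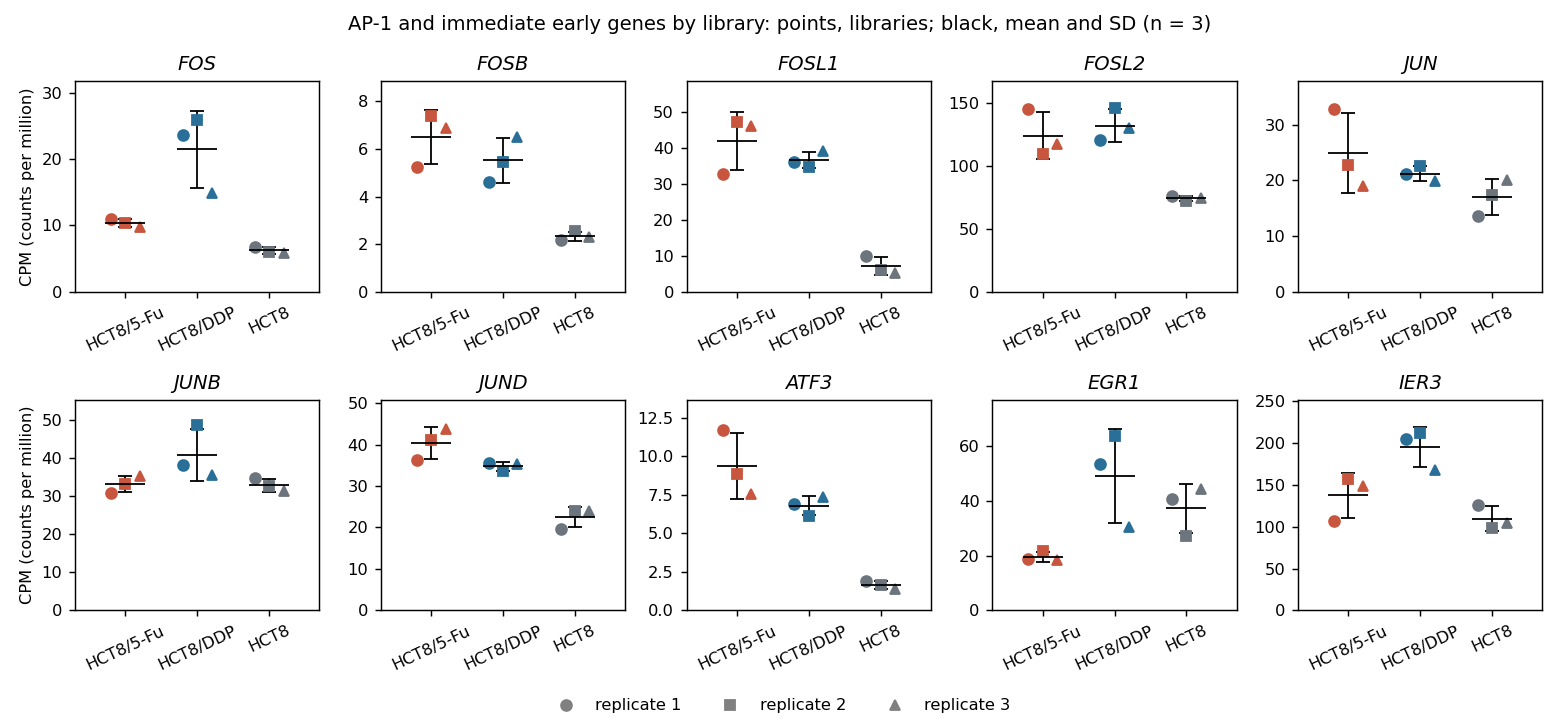
CPM of each gene (vertical axis, from 0) in the 3 libraries of HCT8/5-Fu, HCT8/DDP and HCT8. Marks are libraries by replicate number, the horizontal bar is the mean and the whiskers its SD (n = 3), and the HCT8 libraries lie below all 6 resistant libraries for FOS, FOSB, FOSL1, FOSL2, JUND and ATF3.

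All 4 Fos family genes were higher in both resistant lines. FOSL1, which codes for Fra-1, a Fos protein that lacks the strong transactivation domain of c-Fos, was measured at 32.6, 47.0 and 46.1 CPM in HCT8/5-Fu and at 36.2, 34.6 and 39.0 CPM in HCT8/DDP, against 10.1, 6.20 and 5.38 CPM in HCT8. Every resistant library lay well above every HCT8 library, and HCT8/5-Fu replicate 1 was the lowest of its line while HCT8 replicate 1 was the highest of its own. The log2 fold change was 2.67 ± 0.27 (SE, edgeR adjusted p = 1.24e-04) in HCT8/5-Fu, a 6.37-fold difference. It was 2.48 ± 0.18 (SE, edgeR adjusted p = 2.36e-07) in HCT8/DDP, a 5.57-fold difference. Of all genes tested, 98.5% in HCT8/5-Fu and 97.9% in HCT8/DDP had a smaller fold change than FOSL1.

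FOS, which codes for the short-lived c-Fos, was low in all lines and had 11.0, 10.3 and 9.75 CPM in HCT8/5-Fu and 23.6, 25.9 and 14.9 CPM in HCT8/DDP, against 6.78, 6.07 and 5.84 CPM in HCT8. The 3 lines did not overlap, with HCT8/DDP highest and its replicate 3 apart from the others. FOS rose with a log2 fold change of 0.84 ± 0.17 (SE, edgeR adjusted p = 0.00505) in HCT8/5-Fu and 1.90 ± 0.19 (SE, edgeR adjusted p = 4.15e-06) in HCT8/DDP. FOSB had 5.24, 7.39 and 6.88 CPM in HCT8/5-Fu and 4.63, 5.44 and 6.50 CPM in HCT8/DDP, against 2.18, 2.54 and 2.30 CPM in HCT8. Its resistant libraries lay above the HCT8 libraries and overlapped each other. FOSB rose with a log2 fold change of 1.59 ± 0.27 (SE, edgeR adjusted p = 0.00189) in HCT8/5-Fu, a 3.01-fold difference, and 1.35 ± 0.25 (SE, edgeR adjusted p = 5.66e-04) in HCT8/DDP. FOSB rested on 43 to 59 counts in the HCT8 libraries, and its locus overlaps that of ERCC1, a DNA repair gene on the other strand with 62.3 to 95.5 CPM. Whether the counting used strand is not given in the sources used here, so the value of FOSB is uncertain.

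FOSL2, which codes for Fra-2, had 145.1, 109.7 and 117.3 CPM in HCT8/5-Fu and 120.4, 145.9 and 129.9 CPM in HCT8/DDP, against 76.1, 72.4 and 74.5 CPM in HCT8. The HCT8 libraries were close together and below all resistant libraries. FOSL2 rose with a log2 fold change of 0.84 ± 0.11 (SE, edgeR adjusted p = 4.70e-04) in HCT8/5-Fu and 0.95 ± 0.09 (SE, edgeR adjusted p = 3.60e-06) in HCT8/DDP.

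The Jun family, whose proteins pair with Fos proteins or with each other, differed by gene in the size of its change. JUND, often described as a brake on growth, had 36.2, 41.2 and 43.7 CPM in HCT8/5-Fu and 35.5, 33.6 and 35.3 CPM in HCT8/DDP, against 19.7, 24.0 and 24.0 CPM in HCT8. Its resistant libraries all lay above its HCT8 libraries. JUND rose with a log2 fold change of 0.95 ± 0.16 (SE, edgeR adjusted p = 0.00229) in HCT8/5-Fu and 0.74 ± 0.12 (SE, edgeR adjusted p = 2.65e-04) in HCT8/DDP.

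JUN, the partner in the classical Fos-Jun dimer, had 32.8, 22.8 and 19.1 CPM in HCT8/5-Fu and 21.1, 22.6 and 19.9 CPM in HCT8/DDP, against 13.6, 17.4 and 20.0 CPM in HCT8. Both resistant lines overlapped HCT8, whose replicate 3 reached their lower libraries. JUN reached a log2 fold change of 0.63 ± 0.21 (SE, edgeR adjusted p = 0.0439) in HCT8/5-Fu and 0.43 ± 0.16 (SE, edgeR adjusted p = 0.0342) in HCT8/DDP. The call in HCT8/5-Fu was lost without HCT8/5-Fu replicate 1 (edgeR adjusted p = 0.0614) or 2 (0.0752) and without HCT8 replicate 1 (0.118), 2 (0.104) or 3 (0.0504). The call in HCT8/DDP was lost without HCT8/DDP replicate 1 (edgeR adjusted p = 0.0709), 2 (0.110) or 3 (0.0573) and without HCT8 replicate 1 (0.0684) or 2 (0.0529).

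JUNB had 30.9, 33.2 and 35.2 CPM in HCT8/5-Fu and 38.3, 48.5 and 35.6 CPM in HCT8/DDP, against 34.6, 32.6 and 31.4 CPM in HCT8. HCT8/5-Fu overlapped HCT8, while the HCT8/DDP libraries were just above it, led by replicate 2. The log2 fold change was 0.12 in HCT8/5-Fu (95% interval -0.18 to 0.42, edgeR adjusted p = 0.488). It was 0.43 ± 0.12 (SE, edgeR adjusted p = 0.00885) in HCT8/DDP, and 0.30 without HCT8/DDP replicate 2 (edgeR adjusted p = 0.0564). JUNB overlaps HOOK2 on the other strand, which had 20.0 to 39.7 CPM, and its value is uncertain in the same way as that of FOSB.

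ATF3, a stress-induced bZIP factor that dimerizes with Jun proteins and is known to respond to DNA damage, had 11.7, 8.83 and 7.55 CPM in HCT8/5-Fu and 6.89, 6.12 and 7.36 CPM in HCT8/DDP, against 1.92, 1.64 and 1.37 CPM in HCT8. All 6 resistant libraries stood clear of HCT8, where ATF3 rested on 32 to 38 counts a library. Its log2 fold change was 2.60 ± 0.25 (SE, edgeR adjusted p = 9.12e-05) in HCT8/5-Fu, a 6.08-fold difference. It was 2.17 ± 0.24 (SE, edgeR adjusted p = 9.26e-06) in HCT8/DDP, a 4.50-fold difference. JUN, whose promoter holds the same TGACATCA as that of ATF3, had the fitted changes of 0.63 and 0.43 given above.

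EGR1, a zinc finger factor induced through serum response factor, was lower than in HCT8 in HCT8/5-Fu and did not pass the test in HCT8/DDP. It had 18.8, 21.6 and 18.3 CPM in HCT8/5-Fu and 53.6, 63.9 and 30.3 CPM in HCT8/DDP, against 40.7, 27.3 and 44.2 CPM in HCT8. HCT8/5-Fu lay below all HCT8 libraries, whereas HCT8/DDP replicate 3 lay within HCT8 and the other HCT8/DDP libraries lay above. EGR1 fell in HCT8/5-Fu with a log2 fold change of -0.82 ± 0.19 (SE, edgeR adjusted p = 0.00974), and 12.5% of all genes had a smaller value. In HCT8/DDP the log2 fold change of 0.52 did not pass the test (95% interval 0.03 to 0.997, edgeR adjusted p = 0.0689). It passed without HCT8/DDP replicate 3 (0.76, edgeR adjusted p = 0.00643) or without HCT8 replicate 3 (0.67, edgeR adjusted p = 0.0303).

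IER3, an early response gene known for its effects on apoptosis, had 107.2, 156.9 and 148.1 CPM in HCT8/5-Fu and 204.7, 212.3 and 167.5 CPM in HCT8/DDP, against 126.4, 97.9 and 104.5 CPM in HCT8. HCT8/DDP lay above HCT8 in every library, and in HCT8/5-Fu only replicate 1 fell within the range of HCT8. The log2 fold change was 0.95 ± 0.11 (SE, edgeR adjusted p = 1.23e-05) in HCT8/DDP. In HCT8/5-Fu it was 0.45 (95% interval 0.02 to 0.88, edgeR adjusted p = 0.0892), and 0.65 without replicate 1 of that line (edgeR adjusted p = 9.26e-04).

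**Figure D2:**
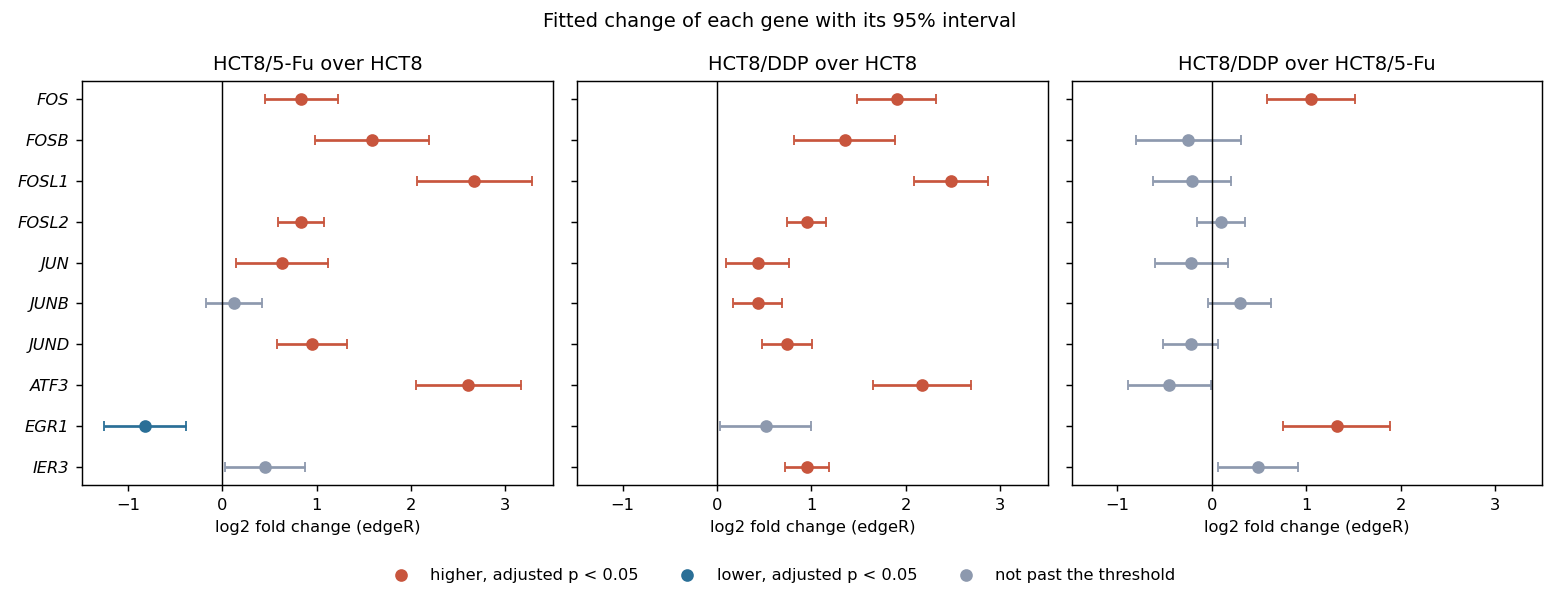
Fitted log2 fold change (edgeR, horizontal axis) of each gene with its 95% interval, for HCT8/5-Fu over HCT8, HCT8/DDP over HCT8 and HCT8/DDP over HCT8/5-Fu. FOSL1 and ATF3 lie farthest to the right against HCT8 in both resistant lines, and FOS and EGR1 are the genes past the threshold between the resistant lines, at 1.05 and 1.32.

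Without regard to the model, the CPM of 6 genes in HCT8/5-Fu (FOS, FOSB, FOSL1, FOSL2, JUND and ATF3) were above all HCT8 libraries and those of EGR1 were below. This separation was seen for 21.1% of all genes tested upwards and for 30.4% downwards. In HCT8/DDP, 8 genes (all but JUN and EGR1) were above all HCT8 libraries, as were 23.0% of all genes tested.

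The resistant lines were then compared with each other, to see which of the genes set one line apart. FOS and EGR1 were higher in HCT8/DDP than in HCT8/5-Fu and none of the 10 was lower (0 also with DESeq2, and 1, ATF3, in edgeR before adjustment), where 1.51% of the 13012 genes tested were higher and 0.753% lower. For FOS the log2 fold change was 1.05 ± 0.20 (SE, edgeR adjusted p = 0.0450) and for EGR1 it was 1.32 ± 0.25 (SE, edgeR adjusted p = 0.0396). Both genes separated the lines in every library, although HCT8/DDP replicate 3 was nearest to HCT8/5-Fu. Both calls were close to the threshold: without 1 library the edgeR adjusted p was 0.213, 0.244 and 0.0669 for FOS (HCT8/DDP replicates 1, 2 and 3 left out) and 0.117 and 0.153 (HCT8/5-Fu replicates 2 and 3). For EGR1 it was 0.200, 0.236 and 0.0669 without those HCT8/DDP replicates and 0.0924 and 0.146 without those HCT8/5-Fu replicates. With any of these libraries left out, 0 of all genes tested passed between the resistant lines.

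The other 8 genes did not pass the test between the resistant lines. Their log2 fold changes had 95% intervals of -0.80 to 0.31 for FOSB, -0.62 to 0.20 for FOSL1, -0.15 to 0.35 for FOSL2 and -0.60 to 0.17 for JUN. The intervals were -0.04 to 0.63 for JUNB, -0.51 to 0.07 for JUND, -0.89 to -0.01 for ATF3 and 0.07 to 0.91 for IER3, so differences of these sizes remain possible. By library, HCT8/DDP lay above HCT8/5-Fu for FOS, JUNB, EGR1 and IER3 and below it for JUND and ATF3, as did 14.2% of all genes upwards and 13.7% downwards. Without HCT8/5-Fu replicate 1, FOSL1 (-0.41, edgeR adjusted p = 0.00545) and JUND (-0.35, edgeR adjusted p = 0.0106) were lower in HCT8/DDP and IER3 was higher (0.29, edgeR adjusted p = 0.0303), and FOS and EGR1 still passed. Of all 13162 genes tested without that library, 1832 were higher and 2097 lower.

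Within HCT8/DDP the libraries did not rank alike for all genes. Replicate 3 was at 69.4% of the line's mean for FOS and at 61.6% for EGR1, and it was also the lowest of its line for IER3, JUN and JUNB. The same library was the highest of its line for FOSB, FOSL1 and ATF3. Heat shock genes, which also react to the handling of cells, summed to 4639, 4893 and 6594 CPM in HCT8/DDP replicates 1, 2 and 3. They summed to 6269, 9597 and 9307 CPM in HCT8/5-Fu, with the library that stood apart lowest, against 6658, 5429 and 5209 CPM in HCT8. Of 9 such genes, 4 were higher in HCT8/5-Fu and 2 in HCT8/DDP, where 20.4% and 27.0% of all genes tested were higher. The count in HCT8/5-Fu was 7 without HCT8/5-Fu replicate 1, where 3819 of all 13418 genes tested were higher. It was 2 without HCT8/5-Fu replicate 2 or 3 or HCT8 replicate 2 or 3, where 1731 to 2119 of 13393 to 13498 genes were higher. In HCT8/DDP it was 1 without HCT8/DDP replicate 3 and with DESeq2, and 3 without HCT8 replicate 1. Over all genes these settings gave 3288 of 13535, 3585 of 13373 and 4102 of 13600 higher, in the same order. Between the resistant lines 0 of the 9 passed with all 6 libraries in edgeR. With DESeq2, 3 were lower in HCT8/DDP, as were 560 of all 13012 genes. Without HCT8/5-Fu replicate 1, 8 of the 9 were lower in HCT8/DDP, where 2097 of all 13162 genes tested were lower. The part of handling or stress at harvest in the levels of the 10 genes was not tested.

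Levels of different genes were compared per length, in FPKM (counts scaled by transcript length and library total). IER3 led in all 3 lines, with 101.8 ± 19.6 FPKM in HCT8/5-Fu and 144.3 ± 17.7 FPKM in HCT8/DDP, against 81.2 ± 11.1 FPKM in HCT8 (SD, n = 3 each). FOSL1 was the 2nd gene in HCT8/5-Fu (22.2 ± 4.27 FPKM) and the 3rd in HCT8/DDP (19.4 ± 1.19 FPKM), but the 7th in HCT8 (3.82 ± 1.33 FPKM). In HCT8/5-Fu, FOSL1, JUND (20.9 FPKM), JUNB (18.1 FPKM) and FOSL2 (17.3 FPKM) each overlapped the next in order over the libraries, followed by JUN (7.64 FPKM) and EGR1 (6.24 FPKM), which overlapped each other. In HCT8/DDP, JUNB (22.3 FPKM), FOSL1, FOSL2 (18.4 FPKM), JUND (18.0 FPKM) and EGR1 (15.7 FPKM) each overlapped the next, and so did FOS (6.74 FPKM) and JUN (6.50 FPKM). In HCT8, JUNB (18.0 FPKM) was separate, EGR1 (11.9 FPKM), JUND (11.7 FPKM) and FOSL2 (10.4 FPKM) overlapped, and so did JUN (5.22 FPKM) and FOSL1. FOSB and ATF3 were at the bottom in every line, with ATF3 above FOSB in both resistant lines at 2.32 against 1.17 FPKM in HCT8/5-Fu and 1.68 against 0.995 FPKM in HCT8/DDP. In HCT8 those genes overlapped, at 0.406 FPKM for ATF3 and 0.422 FPKM for FOSB.

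The make-up of the Fos family was expressed as the share of each gene in the summed FPKM of the family. Its summed level was 43.9 ± 1.76 FPKM in HCT8/5-Fu and 45.6 ± 1.96 FPKM in HCT8/DDP, against 16.6 ± 1.66 FPKM in HCT8 (SD, n = 3 each). FOSL1 made up 41.2%, 55.6% and 54.2% of it in HCT8/5-Fu and between 38.3% and 46.3% in the HCT8/DDP libraries, against 28.9%, 20.9% and 18.4% in HCT8. FOSL2 made up 39.6% ± 7.61 in HCT8/5-Fu and 40.4% ± 2.31 in HCT8/DDP, against 62.9% ± 4.93 in HCT8 (SD, n = 3 each). Every resistant library was on the same side of HCT8 for both shares, and the exact two-sided permutation test gave p = 0.1 for each, the smallest that 3 against 3 libraries allow, so that the design cannot reach 0.05. FOS made up 7.41% ± 0.738 in HCT8/5-Fu and 14.7% ± 3.70 in HCT8/DDP, against 11.8% ± 0.293 in HCT8. Thus its share was lower in HCT8/5-Fu than in HCT8 in every library (exact permutation p = 0.1) although its CPM was higher, and HCT8/DDP overlapped HCT8 (exact permutation p = 0.4).

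The summed Jun family was at 46.7 ± 1.02 FPKM in HCT8/5-Fu and 46.8 ± 3.60 FPKM in HCT8/DDP, against 34.9 ± 1.34 FPKM in HCT8 (SD, n = 3 each). JUND made up 44.8% ± 3.35 of it in HCT8/5-Fu and 38.7% ± 3.97 in HCT8/DDP, against 33.5% ± 2.41 in HCT8. JUNB made up 38.7% ± 1.68 in HCT8/5-Fu and 47.4% ± 4.18 in HCT8/DDP, against 51.6% ± 4.61 in HCT8. HCT8/5-Fu did not overlap HCT8 for either share (exact permutation p = 0.1), while HCT8/DDP did (exact permutation p = 0.3). The share of JUN was 16.4% ± 5.02 in HCT8/5-Fu and 13.9% ± 0.263 in HCT8/DDP, against 14.9% ± 2.35 in HCT8, and the lines overlapped.

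**Figure D3:**
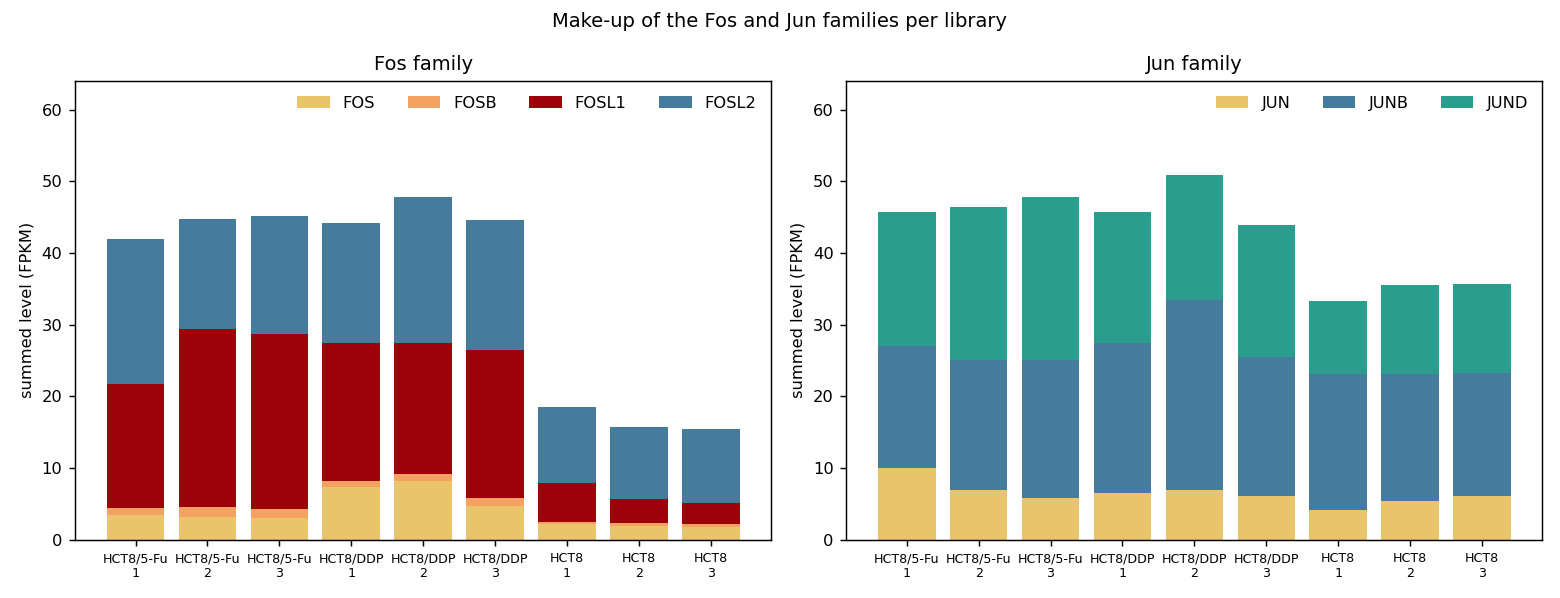
Stacked level in FPKM (vertical axis, from 0) of the Fos family (left) and the Jun family (right) in each of the 9 libraries. The summed Fos family averages 43.9 FPKM in HCT8/5-Fu and 45.6 FPKM in HCT8/DDP, against 16.6 FPKM in HCT8, with FOSL1 as the segment that differs most.

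Other genes of the same response were counted from lists that do not contain the 10. Of 30 other immediate early genes, 17 of 28 tested were higher and 1 was lower in HCT8/5-Fu (median log2 fold change 0.66), and 20 of 29 were higher and 1 was lower in HCT8/DDP (median 0.84). With 1 library left out, 13 to 18 of the list were higher and 1 or 2 lower in HCT8/5-Fu, with 18 and 2 without HCT8/5-Fu replicate 1. Over all genes, 3274 to 7533 passed in either direction with 1 library left out. Without HCT8/5-Fu replicate 1, 3819 of 13418 were higher and 3714 lower. CCN1, a matricellular protein, averaged 156.7 ± 26.0 CPM in HCT8/5-Fu and 113.9 ± 20.9 CPM in HCT8/DDP, against 22.3 ± 2.19 CPM in HCT8 (SD, n = 3 each). Its log2 fold changes were 2.92 (edgeR adjusted p = 1.34e-05) and 2.47 (edgeR adjusted p = 3.09e-08) in the same order. PHLDA1 rose too, with 242.1 CPM in HCT8/5-Fu and 285.8 CPM in HCT8/DDP, against 68.9 CPM in HCT8.

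DUSP5, a nuclear phosphatase that acts on ERK kinases, averaged 68.2 ± 11.7 CPM in HCT8/5-Fu and 37.9 ± 0.834 CPM in HCT8/DDP, against 5.98 ± 4.57 CPM in HCT8 (SD, n = 3 each). Between the resistant lines it was lower in HCT8/DDP, the 1 call in that list with all 6 libraries in edgeR, with a log2 fold change of -0.84 (edgeR adjusted p = 0.0271). That call was lost when any 1 of the HCT8/DDP libraries or HCT8/5-Fu replicate 2 or 3 was left out (edgeR adjusted p 0.0673 to 0.229). In each of those settings 0 of all genes tested passed the threshold. Of the 29 genes tested in that list, 4 were higher and 5 lower in HCT8/DDP without HCT8/5-Fu replicate 1. Over all genes those counts were 1832 and 2097 of 13162. With DESeq2, 2 of the list were higher and 1 lower, against 723 and 560 of all 13012 genes. The gene that fell in both lines was NFKBIA, the inhibitor of NF-kappa-B, which in HCT8/5-Fu was named after its values were seen. It averaged 32.8 CPM in HCT8/5-Fu and 39.0 CPM in HCT8/DDP, against 86.1 CPM in HCT8, with log2 fold changes of -1.27 (edgeR adjusted p = 8.26e-04) and -1.02 (edgeR adjusted p = 1.36e-06).

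Of 20 textbook AP-1 targets, only 12 had enough counts to test. Among these, 7 were higher and 3 lower in HCT8/5-Fu (median log2 fold change 0.998). Over the 13228 genes tested there, 20.4% passed upwards and 18.3% downwards. For HCT8/DDP the targets gave 8 higher and 2 lower (median 0.94). Of the 13373 genes tested for that line, 27.0% passed upwards and 25.5% downwards. CCND1, which codes for the G1 cyclin D1, averaged 2209 ± 304 CPM in HCT8/5-Fu and 1758 ± 251 CPM in HCT8/DDP, against 571 ± 88.6 CPM in HCT8 (SD, n = 3 each). PLAUR, the urokinase receptor, averaged 31.7 CPM in HCT8/5-Fu and 39.7 CPM in HCT8/DDP, against 9.55 CPM in HCT8. The collagenase MMP13 had 167 counts in the 3 HCT8/5-Fu libraries and 660 in the 3 HCT8/DDP libraries, against 10 in those of HCT8. CD44, a hyaluronan receptor, and CXCL8, a neutrophil chemokine, moved the other way. CD44 averaged 5.55 CPM in HCT8/5-Fu and 5.04 CPM in HCT8/DDP, against 45.2 CPM in HCT8, with log2 fold changes of -2.89 (edgeR adjusted p = 2.98e-05) and -3.04 (edgeR adjusted p = 3.50e-07). CXCL8 averaged 2.22 CPM in HCT8/5-Fu and 0.647 CPM in HCT8/DDP, against 13.0 CPM in HCT8.

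**Figure D4:**
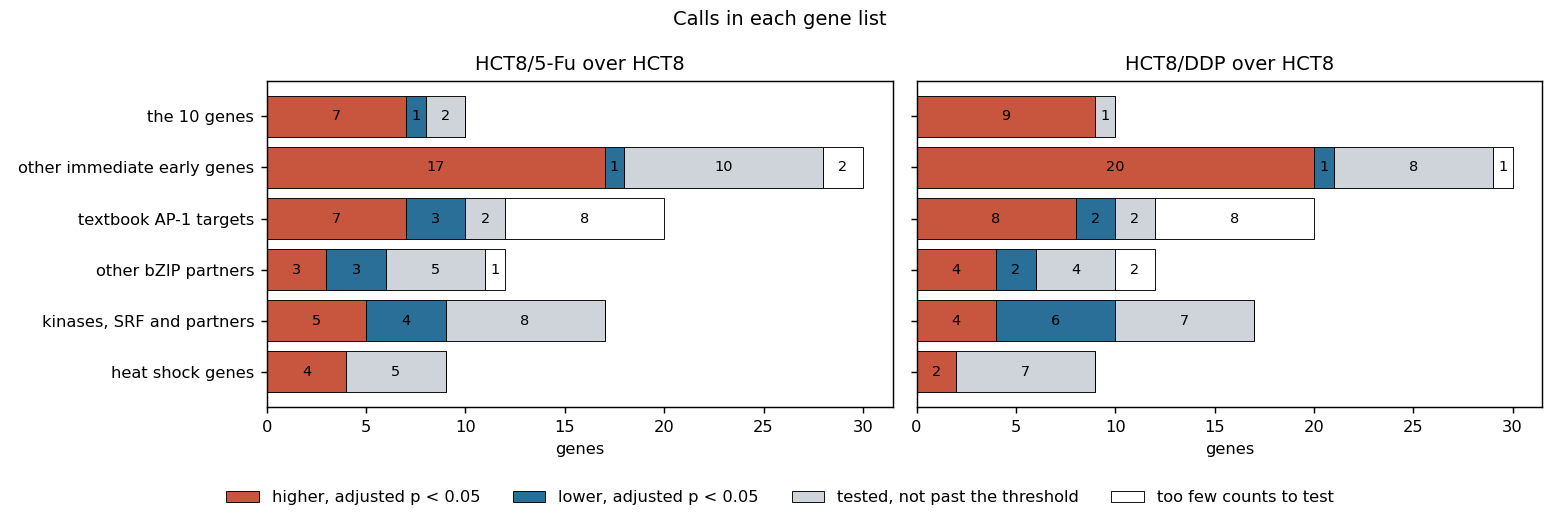
Number of genes (horizontal axis) of each list that were higher, lower or not past an adjusted p of 0.05 (edgeR), or had too few counts to test, for HCT8/5-Fu over HCT8 (left) and HCT8/DDP over HCT8 (right). Of the 10 genes, 7 are higher and 1 is lower in HCT8/5-Fu and 9 are higher in HCT8/DDP. The kinases and their factors have 5 higher and 4 lower in HCT8/5-Fu, but 1 and 1 without HCT8 replicate 2 or 3. In HCT8/DDP they have 4 higher and 6 lower. There 3 are lower with 1 of several libraries left out, and 7 without HCT8 replicate 1.

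Genes on either side of AP-1, its other dimer partners and the kinases that activate it, were counted as well. The shares over all genes tested, to set beside these counts, were 20.4% higher and 18.3% lower in HCT8/5-Fu. In HCT8/DDP they were 27.0% and 25.5%. Of the other bZIP partners, 3 of 11 tested were higher and 3 lower in HCT8/5-Fu, and 4 of 10 were higher and 2 lower in HCT8/DDP. Without HCT8/5-Fu replicate 1 those in HCT8/5-Fu were 3 higher and 5 lower, where 3819 of all 13418 genes tested were higher and 3714 lower. MAFF, a small Maf protein, averaged 30.9 CPM in HCT8/5-Fu and 28.4 CPM in HCT8/DDP, against 13.9 CPM in HCT8, and was higher in both lines (edgeR adjusted p = 4.90e-04 and 4.37e-05). BATF, an AP-1 factor known from lymphocytes, had 3 counts over the HCT8/5-Fu libraries and 5 over the HCT8/DDP libraries, against 176 over those of HCT8, and was lower in both. Of 17 kinases, serum response factor and its partners, 5 were higher and 4 lower in HCT8/5-Fu and 4 were higher and 6 lower in HCT8/DDP. These counts rested on single libraries: in HCT8/5-Fu they were 1 higher and 1 lower without HCT8 replicate 2 or 3, 1 and 2 without HCT8/5-Fu replicate 3, 2 and 3 without HCT8/5-Fu replicate 2, and 5 and 6 without HCT8/5-Fu replicate 1. In HCT8/DDP 4 were higher and 3 lower without HCT8/DDP replicate 1 or 3 or HCT8 replicate 2 or 3, and 4 and 4 without HCT8/DDP replicate 2. ELK3, a cofactor of serum response factor, was higher in both lines, at 34.6 CPM in HCT8/5-Fu and 41.1 CPM in HCT8/DDP, against 24.7 CPM in HCT8. MAPK3, which codes for the kinase ERK1, was lower in both, at 50.4 CPM in HCT8/5-Fu and 66.2 CPM in HCT8/DDP, against 93.9 CPM in HCT8. Between the resistant lines MMP13 was higher in HCT8/DDP (1.93, edgeR adjusted p = 0.0499). That call was lost without any 1 HCT8/DDP library or HCT8/5-Fu replicate 2 or 3 (edgeR adjusted p 0.0920 to 0.241). Those settings left 0 of all genes tested past the threshold. Without HCT8/5-Fu replicate 1, 4 of 12 AP-1 targets tested were higher and 2 lower in HCT8/DDP than in HCT8/5-Fu. The same counts were 3 and 1 of 10 other bZIP partners and 1 and 2 of 16 kinases and their factors. Over all genes tested in that setting, 1832 of 13162 were higher and 2097 lower.

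The genes whose profile over the 9 libraries was most like each of the 10 were found by the root mean square difference of log2(CPM + 1), each gene centred on its own mean, over 13564 genes. The smallest difference was that of FOSL2 with PRKCZ (0.057), followed by JUND with ATP5IF1 (0.072). ATF3 was nearest to CCND1 (0.117), FOSL1 to AGMAT (0.176), FOS to SCARA5 (0.128) and EGR1 to KLK1 (0.189). The other matches were IER3 with ADAMTS15 (0.092), FOSB with POGLUT3 (0.109), JUN with COX20 (0.087) and JUNB with ZBTB22 (0.089). These are descriptions over 9 libraries in which the lines differ for many genes.

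In the coordinates of the mRNA table, whose gene ends lay within 410 bases of RefSeq (GRCh38.p14) for all 10, FOS (ENSG00000170345) spans chromosome 14 from 75278826 to 75282230. FOSL1 (ENSG00000175592) spans chromosome 11 from 65892049 to 65900573, ATF3 (ENSG00000162772) chromosome 1 from 212565334 to 212620777, and EGR1 (ENSG00000120738) chromosome 5 from 138465479 to 138469303. FOSB, JUNB and JUND lie on chromosome 19, JUN with ATF3 on chromosome 1, FOSL2 on chromosome 2 and IER3 on chromosome 6.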

How the data were processed

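Total RNA of HCT8/5-Fu, HCT8/DDP and HCT8 cells was sequenced after rRNA removal and RNase R treatment, which lowers linear transcripts, and whether the mRNA values come from such treated libraries is not stated. The submitters' processing notes name HISAT2, DESeq2 and the build mm9, although the cells are human. The authors deposited a count for each of 19976 genes in 9 libraries (19753035 to 28535882 counts) and FPKM of the same libraries, which equal the deposited counts divided by transcript length and library total. Tables of circRNA, lncRNA and miRNA were not used here.

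CPM were computed from library totals. Counts were tested with edgeR 4.0.16 (R 4.3.3, TMM factors, filterByExpr, quasi-likelihood test) on the 6 libraries of each comparison, with Benjamini-Hochberg adjustment over all genes tested and a threshold of 0.05. The SE is the log2 fold change divided by the square root of F, and 95% intervals use the total degrees of freedom of the fit. Shares within a family were tested by exact two-sided permutation over libraries. The 10 genes, the lists and the motifs were chosen with earlier results of these data known. Named were all 10 genes and, of each other list, some of the 4 genes with the smallest p in a comparison. The alternatives were DESeq2 1.42.0, library totals, no filter, a single fit of all 9 libraries, replicate number as a block, CPM in place of FPKM for shares, and leaving out each library in turn. The test was tried on simulated data first.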

Additional observations from a re-analysis of the deposited data

Results flagged for a closer look

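The difference between the resistant lines, tested directly, stood out for 2 of the 10 genes. The log2 fold change of HCT8/DDP over HCT8/5-Fu was 1.05 for FOS (edgeR adjusted p = 0.0450) and 1.32 for EGR1 (edgeR adjusted p = 0.0396). FOS had 14.9 to 25.9 CPM in HCT8/DDP and 9.75 to 11.0 CPM in HCT8/5-Fu, and EGR1 had 30.3 to 63.9 CPM in HCT8/DDP and 18.3 to 21.6 CPM in HCT8/5-Fu. In both genes the lowest HCT8/DDP library was replicate 3, and neither call survived the loss of any HCT8/DDP library. With any 1 HCT8/DDP library left out, 0 of all genes tested passed between the resistant lines.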

How the results depend on the processing

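Of 330 fold changes of the 10 genes under 11 alternatives in each of 3 comparisons, none changed sign, 293 kept their side of the threshold, 29 lost it and 8 gained it. FOS, FOSB, FOSL1, FOSL2, JUND and ATF3 in both lines against HCT8, EGR1 in HCT8/5-Fu and IER3 in HCT8/DDP passed under all 11. Of these, EGR1 came nearest to the threshold. With 1 library left out, its edgeR adjusted p reached 0.04997 and its log2 fold change ranged from -0.99 to -0.67. EGR1 in HCT8/DDP gained a call with no filter (edgeR adjusted p = 0.0245), and with all 9 libraries IER3 in HCT8/5-Fu gained one (0.0497) and JUN in HCT8/DDP lost it (0.0831). With library totals, which shifted the median of all genes by -0.10 in HCT8/5-Fu and -0.12 in HCT8/DDP, the calls of JUN in HCT8/5-Fu (edgeR adjusted p = 0.0958), JUN in HCT8/DDP (0.0971), JUNB in HCT8/DDP (0.0524) and FOS between the resistant lines (0.0522) were lost, and higher genes made up 41.3% of calls in HCT8/5-Fu and 38.4% in HCT8/DDP, against 52.6% and 51.5% with TMM. Genes past the threshold numbered 5118 in HCT8/5-Fu (3274 to 7533 with 1 library left out, lowest without HCT8 replicate 3, 3287 without HCT8 replicate 2) and 7019 in HCT8/DDP (5821 to 8024). Between the resistant lines they numbered 295 with edgeR, 1283 with DESeq2 (56.4% higher, against 66.8%), 635 with all 9 libraries, and 0 to 3929 with 1 library left out. The members higher there numbered 2, or 1 with library totals and 0 to 3 with 1 library left out, and those lower numbered 0 to 2. The count was 0 without any HCT8/DDP library and without HCT8/5-Fu replicate 2 or 3, where 1527 to 2551 genes had an unadjusted p under 0.05. Replicate numbers did not pair the libraries, with correlations of -0.162 to 0.0804 between same-numbered libraries. With the replicate block, 0 genes and 0 of the 10 passed between the resistant lines (2263 genes and 3 of the 10 at an unadjusted p under 0.05), and the call of JUN in HCT8/5-Fu was lost (edgeR adjusted p = 0.109). Shares that changed sign, in percentage points, were FOSB in HCT8/5-Fu over HCT8 (-0.134 to 0.293 with 1 library left out), FOSB in HCT8/DDP over HCT8 (0.223 in CPM), FOSL2 in HCT8/DDP over HCT8/5-Fu (-0.207 in CPM, -1.91 to 5.15 with 1 library left out), and JUN in HCT8/5-Fu over HCT8 (-1.24 to 3.63), HCT8/DDP over HCT8 (-2.22 to 0.135) and HCT8/DDP over HCT8/5-Fu (-4.65 to 0.226). The cause of these changes was not tested. In HCT8, FOSB and ATF3 rest on 32 to 59 counts a library.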
